A study of Homo sapiens with 9 samples.

Results

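RSAD2 and CMPK2 are neighbouring genes on the short arm of human chromosome 2, transcribed from opposite strands. They were chosen by gene symbol and are 2 of the 59609 genes in the deposited table; both passed the filter on low counts, which kept 16964 genes. Their RNA was measured by sequencing in the human pancreatic cancer cell line SUIT2. Cells were seeded at 500000 per well and given fresh medium with 100 U/mL interferon beta, a type I interferon, for 6 h (3 libraries) or 24 h (3 libraries), or were control treated (3 libraries). For the control cells the labels state no duration, and they carry the interferon text in their protocol field too, so what the control medium held is known from the treatment label alone. The design text names the transcriptional response at each of these times as the question.

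RSAD2 encodes viperin, an enzyme of the radical S-adenosylmethionine family that sits on the endoplasmic reticulum and on lipid droplets. Viperin turns the nucleotide CTP into ddhCTP, a chain terminator for the RNA polymerases of some viruses. CMPK2 is a mitochondrial nucleoside monophosphate kinase that acts on UMP and CMP and their deoxy forms, which makes it a supplier of precursors of CTP and of deoxynucleotides. In type I interferon signalling the receptor IFNAR activates JAK1 and TYK2, and STAT2 and IRF9 act in a complex that binds the interferon-stimulated response element in promoters; RSAD2 and CMPK2 are both known as interferon-stimulated genes.

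The promoter windows of the pair are shown because both genes moved together in these libraries and because the windows of their alternative starts face each other. RefSeq on GRCh38.p14 gave 5 windows for the 2 genes, each from 250 bases before to 50 bases after a transcript start. Capitals mark matches to a response-element core on either strand. In the main RSAD2 window they mark GAAANNGAAA, and in the other windows the shorter GAANNGAAA, which was chosen after the sequences had been seen. The first window, chr2:6877527-6877826 on the plus strand, holds the start of the main RSAD2 transcript. The second, chr2:6865635-6865934 on the plus strand, belongs to an upstream RSAD2 start and reaches across the start of the main CMPK2 transcript. The third, chr2:6865770-6866069 on the minus strand, belongs to an alternative CMPK2 start; the start of the main CMPK2 transcript lies outside it.
RSAD2 main start: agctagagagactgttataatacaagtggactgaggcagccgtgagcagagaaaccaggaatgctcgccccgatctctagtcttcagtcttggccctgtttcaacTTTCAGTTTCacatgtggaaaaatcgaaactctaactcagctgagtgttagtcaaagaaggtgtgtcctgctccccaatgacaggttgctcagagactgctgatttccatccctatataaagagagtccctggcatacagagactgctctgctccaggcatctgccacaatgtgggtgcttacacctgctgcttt
RSAD2 upstream start: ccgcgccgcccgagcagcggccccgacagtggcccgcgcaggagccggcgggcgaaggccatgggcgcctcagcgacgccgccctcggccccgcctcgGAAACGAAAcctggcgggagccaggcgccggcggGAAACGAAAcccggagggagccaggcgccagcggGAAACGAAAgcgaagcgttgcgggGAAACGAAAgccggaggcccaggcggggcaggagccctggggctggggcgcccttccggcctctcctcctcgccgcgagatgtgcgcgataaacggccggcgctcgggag
CMPK2 alternative start: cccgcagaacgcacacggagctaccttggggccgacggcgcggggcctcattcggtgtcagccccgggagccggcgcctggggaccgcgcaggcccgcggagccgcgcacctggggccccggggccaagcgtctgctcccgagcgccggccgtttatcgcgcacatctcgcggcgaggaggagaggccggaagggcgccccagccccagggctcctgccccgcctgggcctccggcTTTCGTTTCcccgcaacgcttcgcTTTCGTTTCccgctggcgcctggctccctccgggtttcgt

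The main RSAD2 window held 1 match to GAAANNGAAA, read as TTTCAGTTTC at positions 6877632 to 6877641, and that core is present in 3.57% of 35116 RefSeq windows. The upstream RSAD2 window held 4 matches to GAANNGAAA, each read as GAAACGAAA, beginning at 6865733, 6865767, 6865801 and 6865825. Neither this window nor the printed CMPK2 window held a match to GAAANNGAAA, the core fixed beforehand. The shorter core was chosen after these sequences had been seen, so its shares over all windows are descriptions and not a test. At least 1 match to the shorter core occurs in 7.66% of windows, at least 2 in 0.515%, and at least 4 in 2 of 35116 windows. All 4 lie between 37 and 137 bases upstream of the start of the main CMPK2 transcript in GENCODE v29, and all 4 precede the upstream RSAD2 start of RefSeq. In GENCODE v29 upstream RSAD2 transcripts start at 6865806 and 6865828, and the matches beginning at 6865801 and 6865825 cross these starts. The printed CMPK2 window holds the last 2 of the same sites, read from the other strand as TTTCGTTTC, at positions -14 and 11 from its own start, so that 1 precedes and 1 follows that start. The remaining CMPK2 windows and those of the neighbours NRIR and RNF144A hold no match to either core, and no window of these 4 genes matches TTCNNNGAA, the core of the gamma-activated site, which 7.66% of windows hold. A match of letters is a description and not a site of binding, and its absence says only that these letters are not in the window.

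Estimated counts per library totalled 16799278 to 37420457 at 6 h, 25270387 to 40384407 at 24 h and 15101734 to 19632741 in control. The labels do not say that the libraries came from separate cultures, so the p-values speak only of the spread among these libraries, and that spread could be technical. In bulk RNA a change in the number of responding cells and a change in RNA per cell cannot be told apart. The 6 epithelial markers (EPCAM, CDH1 and 4 keratins) were all detected, with a summed level of 5450 to 5760 CPM (counts scaled to a common library depth) at 6 h, 5350 to 5480 at 24 h and 4830 to 4900 in control. KRT8 gave the most of that sum, 3180 CPM at 6 h, 2740 CPM at 24 h and 2570 CPM in control, and the members moved both ways, with 3 higher and 3 lower at 6 h and 4 higher and 1 lower at 24 h over control. KRT7, for example, stood at 0.746 times its control level at 6 h and at 0.592 times at 24 h. Of all tested genes 17.5% were called higher and 15.4% lower at 6 h, and 24.7% and 25.3% at 24 h. Of 10 macrophage and leukocyte markers 3 were tested, and PTPRC, CD3E and TYROBP had 0 counts in all 9 libraries. The summed level of that list was 372 to 389 CPM at 6 h, 405 to 426 CPM at 24 h and 258 to 261 CPM in control, and was made up almost wholly of LYZ and CD68.

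In control cells both genes were close to silent. RSAD2 had 13, 17 and 26 estimated counts in control libraries 1, 2 and 3, and CMPK2 had 18, 21 and 37. Scaled for depth, control library 3 stood above the others for the pair, at 2.07 times their mean for RSAD2 and 2.26 times for CMPK2. The exact 95% Poisson intervals of RSAD2 in the control libraries were 0.415 to 1.33, 0.499 to 1.37 and 1.11 to 2.48 CPM, and those of CMPK2 0.64 to 1.71, 0.654 to 1.62 and 1.7 to 3.33 CPM. These intervals cover counting error only. For CMPK2 the interval of library 3 barely meets that of library 1 and lies above that of library 2, so the fold changes of the pair over control are also given without library 3. Ranked by control level among the 16964 tested genes, RSAD2 stood at 14343 and CMPK2 at 13760.

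At 6 h of interferon beta the pair stood among the most induced genes of the table. RSAD2 reached 572, 556 and 581 CPM in the 6 h libraries, against 0.779, 0.856 and 1.70 CPM in control. The groups lie far apart, and the 3 treated values lie close together. Its mean was 570.0 ± 12.5 CPM at 6 h and 1.11 ± 0.508 CPM in control (SD, n = 3 libraries each), which is 525-fold higher, or 9.04 on the log2 scale (SE 0.10, edgeR adjusted p = 1.67e-18). CMPK2 reached 355, 339 and 345 CPM at 6 h, against 1.08, 1.06 and 2.41 CPM in control. The kinase thus also showed no overlap between groups, from a slightly higher control level and to a lower treated one. Such a lack of overlap, here and below, was also found for genes that did not pass, such as DCTD at 6 h. The share of all tested genes without overlap was not counted. CMPK2 averaged 346 ± 8.16 CPM at 6 h and 1.52 ± 0.776 CPM in control (SD, n = 3 each), which is 235-fold higher, or 7.88 on the log2 scale (SE 0.099, edgeR adjusted p = 3.64e-18).

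Both members were called higher at 6 h, where 17.5% of tested genes were. By size of rise RSAD2 had rank 3 and CMPK2 rank 12 of 16964. By level RSAD2 stood at rank 221 and CMPK2 at rank 472. Without control library 3 the rise was 693-fold for RSAD2 and 325-fold for CMPK2, so the fold depends on 13 to 37 counts per gene and control library, while the treated levels do not.

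At 24 h both genes were still far above control but below their 6 h levels. RSAD2 stood at 56.6, 48.3 and 51.6 CPM in the 24 h libraries, a mean of 52.2 ± 4.21 CPM, against a control mean of 1.11 ± 0.508 CPM (SD, n = 3 each). Its lowest 24 h library was far above its highest control library, and the rise was 48.3-fold, a log2 fold change of 5.59 (SE 0.13, edgeR adjusted p = 1.54e-14). CMPK2 stood at 87.9, 83 and 82.8 CPM at 24 h, a mean of 84.6 ± 2.86 CPM, against 1.52 ± 0.776 CPM in control. Here, too, the groups did not overlap. The rise of CMPK2 was 57.6-fold, a log2 fold change of 5.85 (SE 0.11, edgeR adjusted p = 1.7e-15). Both were called higher at 24 h, as were 24.7% of tested genes, with rank 11 by rise for CMPK2 and rank 13 for RSAD2. Without control library 3 the 24 h rise was 63.5-fold for RSAD2 and 79.1-fold for CMPK2.

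**Figure D1:**
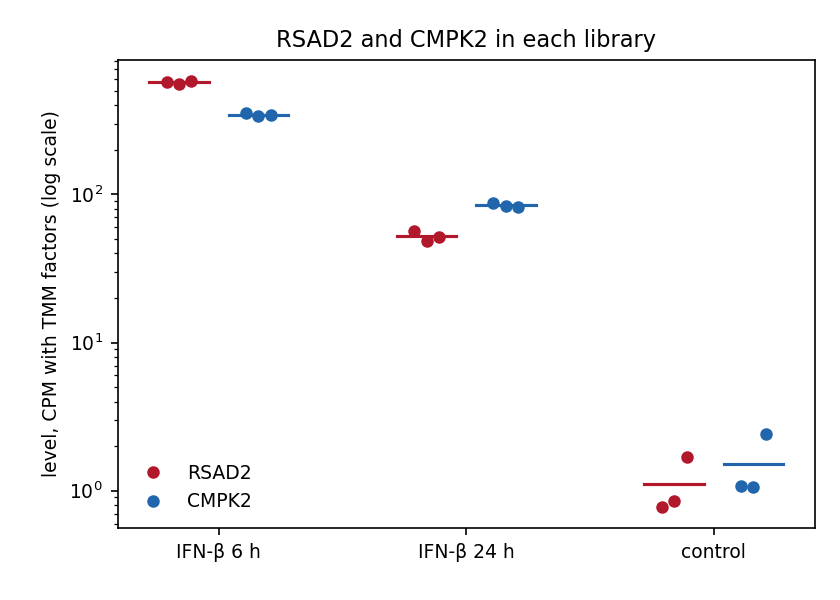
Levels of RSAD2 and CMPK2 in each of the 9 libraries, in CPM on a log axis, at 6 h, at 24 h and in control; points are libraries and bars are group means. RSAD2 lies above CMPK2 in the 6 h libraries (556 to 581 against 339 to 355 CPM) and below it in the 24 h and control libraries.

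Between the times the pair fell, and by unequal amounts. RSAD2 had 52.2 ± 4.21 CPM at 24 h and 570.0 ± 12.5 CPM at 6 h (SD, n = 3 each), which is 10.9-fold lower, or -3.44 on the log2 scale (SE 0.056, edgeR adjusted p = 3.73e-16). CMPK2 had 84.6 ± 2.86 CPM at 24 h and 346 ± 8.16 CPM at 6 h, which is 4.09-fold lower, or -2.03 on the log2 scale (SE 0.051, edgeR adjusted p = 4.03e-14). Both passed as lower, as did 30.6% of tested genes while 26.6% passed as higher. Neither overlapped between the times, a trait whose share over all genes was not counted. By size of fall RSAD2 stood at rank 19 and CMPK2 at rank 110 of the 16964 genes. By level at 24 h the order of the pair had turned, with CMPK2 at rank 2472 and RSAD2 at rank 4116.

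To place these falls, the 198 genes that rose at least 4-fold at 6 h and reached 5 CPM were followed to 24 h. Their median 24 h level was 35.3% of the 6 h level, with quartiles of 25.3% and 55.3%. RSAD2 kept 9.16% of its 6 h level and had rank 11 among the 198 by fall, after rank 3 by rise. CMPK2 kept 24.4%, just under the lower quartile, and had rank 46 by fall after rank 6 by rise. Of the 198 genes 178 were called lower and 11 higher at 24 h than at 6 h, so a fall was the common course and RSAD2 lay near its steep end. The 198 genes were chosen by their 6 h rise, and the comparison of the times shares the 6 h libraries with that choice, so the figures describe and are not a test.

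**Figure D2:**
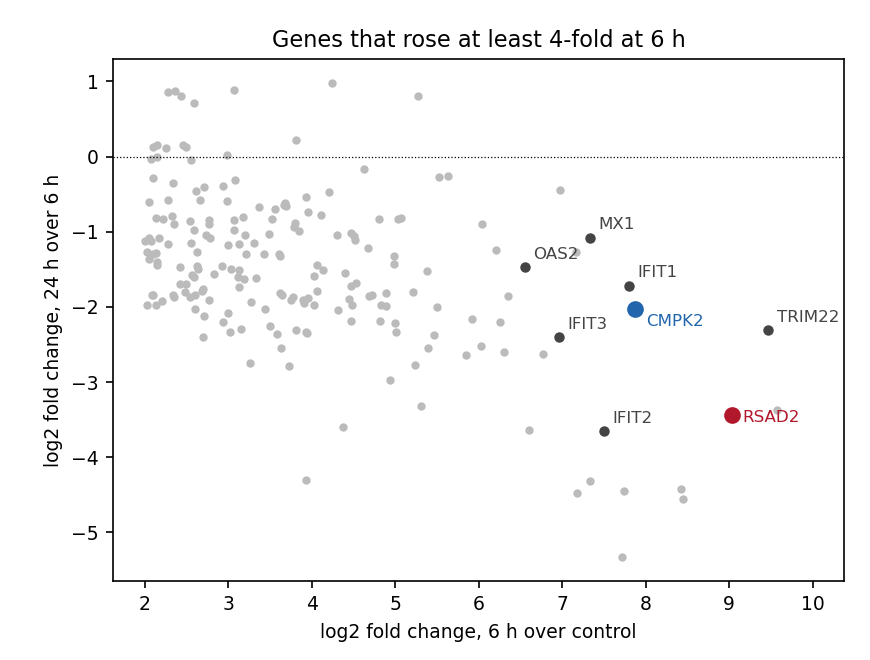
Log2 fold change of 6 h over control (horizontal) and of 24 h over 6 h (vertical) for the 198 genes that rose at least 4-fold at 6 h with 5 CPM or more; each point is a gene, with RSAD2, CMPK2 and the genes nearest to them by profile named. RSAD2 lies far to the right and low (9.04 and -3.44), and CMPK2 (7.88 and -2.03) lies above it, nearer the middle of the vertical range.

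The ratio of the pair within a library is the same under any scaling between libraries. RSAD2 counts divided by CMPK2 counts gave 1.61, 1.64 and 1.68 in the 6 h libraries, 0.644, 0.581 and 0.623 in the 24 h libraries and 0.722, 0.81 and 0.703 in the control libraries. The 6 h libraries thus held more RSAD2 than CMPK2 counts, all 6 other libraries held fewer, and the 3 groups did not overlap. RSAD2 made up 62.3% of the summed counts of the pair at 6 h, 38.3% at 24 h and 42.4% in control. On the log2 scale the ratio averaged 0.72 ± 0.0328 at 6 h, -0.70 ± 0.0759 at 24 h and -0.43 ± 0.108 in control (SD, n = 3 each). An exact permutation test over the 3 groups gave p = 0.00357, the smallest that 1680 assignments allow.

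In pairs of groups the log2 ratio was 1.15 higher at 6 h than in control (2.21-fold), and at 24 h it differed by -1.42 from that at 6 h (0.374 times). Between 24 h and control the difference was -0.27 (0.828 times). Each pairwise exact two-sided permutation test gave p = 0.1, and 0.1 after Benjamini-Hochberg adjustment over the 3 pairs, which is the smallest p that 3 against 3 libraries can give. For depth, the ratio of summed counts was 1.65 at 6 h, with an exact 95% interval of 1.63 to 1.68 from 40846 and 24683 counts. At 24 h it was 0.621 (0.601 to 0.643) from 5640 and 9075 counts, and in control 0.737 (0.512 to 1.05) from 56 and 76 counts. The 24 h interval lies inside the control interval, so a difference between those groups was not detectable at this depth, whereas the 6 h interval lies apart from both.

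**Figure D3:**
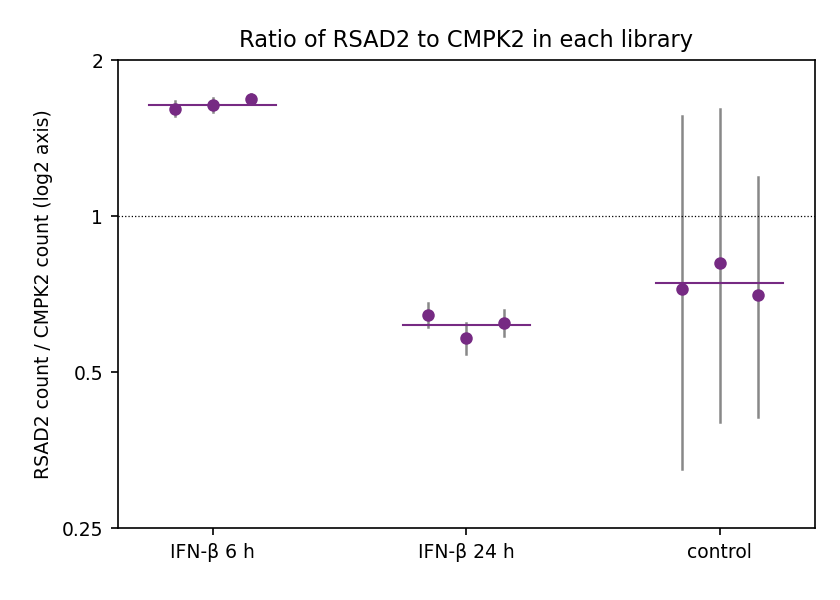
Ratio of RSAD2 to CMPK2 estimated counts in each library on a log axis, at 6 h, at 24 h and in control; points are libraries, horizontal lines are geometric means, and error bars are exact 95% intervals that cover counting error only. The 6 h libraries lie at 1.61 to 1.68, the 24 h libraries at 0.581 to 0.644 and the control libraries, with wide intervals, at 0.703 to 0.81.

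Because the genes differ in length, levels between them were also compared per kilobase of exon, with 4834 exon bases for RSAD2 and 4302 for CMPK2. On that scale RSAD2 stood at 118 CPM per kilobase at 6 h, 10.8 at 24 h and 0.23 in control. CMPK2 stood at 80.5 CPM per kilobase at 6 h, 19.7 at 24 h and 0.352 in control. The ratio of the levels was then 1.46 at 6 h, 0.548 at 24 h and 0.662 in control, and 1.35, 0.504 and 0.609 with the lengths of the main transcripts, so the order of the genes at each time was the same on each of these scales. Which transcripts were present cannot be told from counts per gene.

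The nearest genes by profile were found from log2(CPM + 0.5) values centred on each gene's mean over the 9 libraries, among 11840 genes with a group mean of 5 CPM or more, by root mean square difference. The nearest to RSAD2 was TRIM22, an antiviral ubiquitin ligase, at 0.56 log2 units, followed by CMPK2 at 0.60, IFIT2 and IFIT3 at 0.68 each and IFIT1 at 0.71. The nearest to CMPK2 was IFIT1 at 0.24, followed by TRIM22 at 0.30, IFIT3 and OAS2 at 0.43 each and MX1 at 0.44, with RSAD2 at rank 8. The IFIT proteins bind viral RNA, OAS2 makes the activator of RNase L, and MX1 is an antiviral GTPase. In the list of CMPK2 its chromosomal neighbour thus came after 7 other genes. The points of these profiles share libraries and scaling, and the distances are descriptions. The added 0.5 CPM is larger than the control level of TRIM22, 0.171 CPM, so its distances and ranks depend on that constant. The constant is not small beside the control means of RSAD2 and CMPK2 either, 1.11 and 1.52 CPM. The distance and ranks of the pair can thus depend on it as well. The fitted log2 fold changes at 6 h over control were 9.47 for TRIM22, 9.04 for RSAD2 and 7.88 for CMPK2. Other constants were not tried.

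Their levels are given for comparison with the pair. TRIM22 averaged 126 CPM at 6 h, 25.5 CPM at 24 h and 0.171 CPM in control, and was thus also near silent before treatment. IFIT2 averaged 395 CPM at 6 h, 31.3 CPM at 24 h and 2.21 CPM in control, which left it at 0.0792 times its 6 h level at 24 h, against 0.0919 times for RSAD2. IFIT1 averaged 1570 CPM at 6 h, 478 CPM at 24 h and 7.21 CPM in control, which left it at 0.304 times its 6 h level at 24 h, against 0.245 times for CMPK2. MX1 kept more, at 0.473 times its 6 h level, with 2020 CPM at 6 h, 954 CPM at 24 h and 12.5 CPM in control.

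On the chromosome, GENCODE v29 places RSAD2 (ENSG00000134321) at chr2:6865806-6898239 on the plus strand and CMPK2 (ENSG00000134326) at chr2:6840570-6866635 on the minus strand, on GRCh38. The gene spans overlap by 830 bases, but their exons share only 14 bases, between alternative transcripts of the genes, or 0.29% of the exon bases of RSAD2 and 0.325% of those of CMPK2. The main transcripts of RSAD2 (6 exons, 3519 bases) and CMPK2 (5 exons, 2884 bases) share no base, and their starts lie 11969 bases apart. With no stated strand setting or annotation release, reads over the shared stretch cannot be assigned to either gene.

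**Figure D4:**
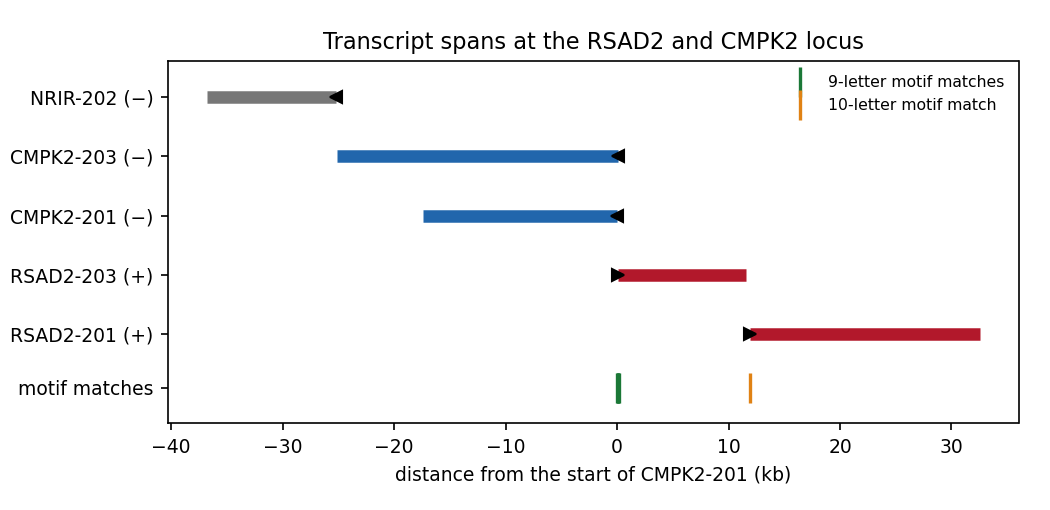
Spans of selected GENCODE v29 transcripts of RSAD2, CMPK2 and NRIR, with arrows at their starts, and positions of the motif matches, as distance in kilobases from the start of the main CMPK2 transcript in the plus-strand direction. The 4 matches of the 9-letter core, which merge at this scale, lie beside the main CMPK2 start and the upstream RSAD2 start, and the 10-letter match lies near the main RSAD2 start.

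Within 500000 bases of the pair the table lists 17 other genes, of which 10 had 0 counts in every library and 4 had more than 10 counts in total. NRIR is a long noncoding RNA described as a negative regulator of the interferon response. It lies 105 bases beyond the end of the CMPK2 gene span, on the same strand. An alternative CMPK2 transcript sets that end, at 6840570, while the main CMPK2 transcript ends farther from NRIR, at 6848316. NRIR had 10, 15 and 15 estimated counts at 6 h, 23, 14 and 20 at 24 h and 0, 0 and 1 in control. The treated libraries did not overlap with control, at low counts, and edgeR called NRIR higher at 6 h (adjusted p = 0.000193) and at 24 h (adjusted p = 0.000113). The depth-adjusted ratio of summed counts was 29 at 6 h over control (exact 95% interval 4.92 to 1180) and 27.7 at 24 h over control (4.77 to 1110). Both rest on 1 control count, in library 3; without that library control had 0 counts, and the fitted log2 fold changes of 6.96 at 6 h and 6.85 at 24 h, in place of 4.57 and 4.47, depend on the prior count and are no bound. Between 24 h and 6 h NRIR did not pass (log2 fold change -0.099, SE 0.34, edgeR adjusted p = 0.858) while both members of the pair passed as lower; the difference between NRIR and the pair was not tested. NRIR lies downstream of CMPK2 on the same strand. Reads running past the end of CMPK2 could not be separated from NRIR in counts per gene, and their part was not tested.

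RNF144A, a ubiquitin ligase gene, begins 19173 bases beyond RSAD2 on the plus strand. It averaged 18.4 ± 1.91 CPM at 6 h, 9.58 ± 0.644 CPM at 24 h and 5.20 ± 0.77 CPM in control (SD, n = 3 each). It was called in the same direction as the pair in each comparison, with log2 fold changes of 1.82 at 6 h and 0.88 at 24 h over control and -0.93 at 24 h over 6 h (edgeR adjusted p = 3.74e-09, 1.41e-05 and 4.26e-07), all smaller than those of RSAD2 and CMPK2. The remaining neighbours with more than 10 counts were PIK3CDP1, with 23 counts in total, which was not tested, and AC010904.1, with 83, which did not pass in any comparison.

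Of 15 receptor, kinase, transcription factor and feedback genes of the pathway, 11 passed as higher and 1 as lower at 6 h, where 17.5% and 15.4% of all tested genes did, and the median of their log2 fold changes was 2.35, against -0.0053 over all tested genes. STAT2, a subunit of the complex that binds the response element, averaged 334 ± 15.4 CPM at 6 h and 21.6 ± 2.18 CPM in control, 3.96 higher on the log2 scale. IRF9 rose by 2.99 on the log2 scale, and IRF7, a factor that is itself interferon-induced, by 4.67. The receptor genes themselves did not rise at 6 h: IFNAR1 passed as lower, with a log2 fold change of -0.20 (edgeR adjusted p = 0.00171), and IFNAR2 (0.028) and the kinase gene TYK2 (0.02) did not pass. The other kinase gene, JAK1, passed as higher at 6 h (0.22, edgeR adjusted p = 3.2e-05) and as lower at 24 h (-0.15) over control. IFNAR2 passed as higher at 24 h (0.33), and IFNAR1 and TYK2 did not pass then. At 24 h 10 of the 15 were higher and 2 lower than in control (24.7% and 25.3% of all tested genes), with a median of 0.50. Between the times 3 were higher and 10 lower (26.6% and 30.6% of all tested genes), with a median of -0.69 against -0.019 over all genes.

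Feedback genes fell between the times as well. USP18, which blocks the receptor, averaged 143 ± 3.88 CPM at 24 h and 657 ± 9.76 CPM at 6 h, with a difference of -2.20 on the log2 scale, against -2.03 for CMPK2. SOCS1, an inhibitor of the JAK kinases, averaged 0.34 ± 0.0942 CPM at 24 h and 6.60 ± 0.407 CPM at 6 h, with a difference of -4.30, against -3.44 for RSAD2. IRF1 and IRF2 fell by 2.21 and 1.85 on the log2 scale between the times, and STAT2 fell by 1.89. PRDM1, a repressor that can occupy interferon response elements, was higher at 24 h than in control (1.49 ± 0.0835 against 0.658 ± 0.209 CPM, log2 fold change 1.18). These PRDM1 levels rest on few counts, 160 in sum at 24 h and 34 in control. Between the times PRDM1 rose by 1.25 on the log2 scale (edgeR adjusted p = 0.00183). Its part in the falls was not tested.

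Genes of pyrimidine and CTP synthesis, the reactions around the 2 enzymes, had log2 fold changes over control between -0.83 and 0.51. Of these 9 genes none passed as higher and 3 as lower at 6 h, and at 24 h 1 passed as higher and 4 as lower. The gene that passed as higher was CTPS2, a CTP synthase, at 18.7 ± 0.211 CPM at 24 h and 13.1 ± 0.616 CPM in control, a log2 fold change of 0.51. CAD, which carries out the first steps of pyrimidine synthesis, was lower at 24 h by a log2 fold change of -0.53, and CDA, a cytidine deaminase, by -0.83. Over all tested genes the shares were 17.5% higher and 15.4% lower at 6 h and 24.7% higher and 25.3% lower at 24 h.

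Among 16 tested nucleotide kinases other than CMPK2, 3 were higher and 2 lower at 6 h, and 5 were higher and 3 lower at 24 h. The shares over all tested genes were 17.5% and 15.4% at 6 h, and 24.7% and 25.3% at 24 h. The cytosolic counterpart CMPK1, named for its function, averaged 178 ± 10.2 CPM at 6 h, 166 ± 3.35 CPM at 24 h and 172 ± 4.76 CPM in control. It did not pass at either time over control (log2 fold changes 0.048 and -0.057, edgeR adjusted p = 0.404 and 0.256). The largest change over control that passed in the list was that of AK7, an adenylate kinase, with a log2 fold change of 1.26 at 24 h. Against these values stand the log2 fold changes of CMPK2, 7.88 at 6 h and 5.85 at 24 h.

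Of 16 genes of mitochondrial DNA and deoxynucleotide supply, 4 were higher and 3 lower at 6 h, and 3 were higher and 5 lower at 24 h. For all tested genes the shares were 17.5% higher and 15.4% lower at 6 h, and 24.7% and 25.3% at 24 h. TYMP, thymidine phosphorylase, stood apart, at 157 ± 7.32 CPM at 6 h, 77.1 ± 2.16 CPM at 24 h and 7.05 ± 0.13 CPM in control, with log2 fold changes of 4.47 and 3.45. Viperin carries an iron-sulfur cluster, which the cytosolic assembly machinery delivers. Of 12 cytosolic assembly genes 1 was higher and 1 lower at 6 h, and 4 were higher and 3 lower at 24 h. CIAO1, named because its protein binds viperin, averaged 77.4 ± 2.93 CPM at 6 h, 81.3 ± 2.57 CPM at 24 h and 78.9 ± 1.54 CPM in control and did not pass (log2 fold changes -0.028 and 0.046, edgeR adjusted p = 0.65 and 0.347). The calls of CIAO1 and CMPK1 depend on the scaling.

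Of 14 mitochondrial iron-sulfur genes none was higher and 2 were lower at 6 h, with 2 higher and 3 lower at 24 h. All tested genes gave 17.5% higher and 15.4% lower at 6 h, and 24.7% and 25.3% at 24 h. The 8 other radical S-adenosylmethionine enzymes had none higher and 3 lower at 6 h, and none higher and 1 lower at 24 h, with log2 fold changes over control between -0.29 and 0.13, against 9.04 and 5.59 for RSAD2. Of 14 described viperin partners 12 were tested, with 4 higher and 2 lower at 6 h and 2 higher and 4 lower at 24 h. STING1, an adaptor for cytosolic DNA signalling, averaged 106 ± 5.92 CPM at 6 h, 66.7 ± 0.25 CPM at 24 h and 29.6 ± 0.845 CPM in control, with log2 fold changes of 1.85 and 1.17. IRAK1, a kinase of Toll-like receptor signalling, was lower at 24 h by a log2 fold change of -0.69. The receptors TLR7 and TLR9, whose signalling viperin is described to assist, had 0 counts in every library.

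**Figure D5:**
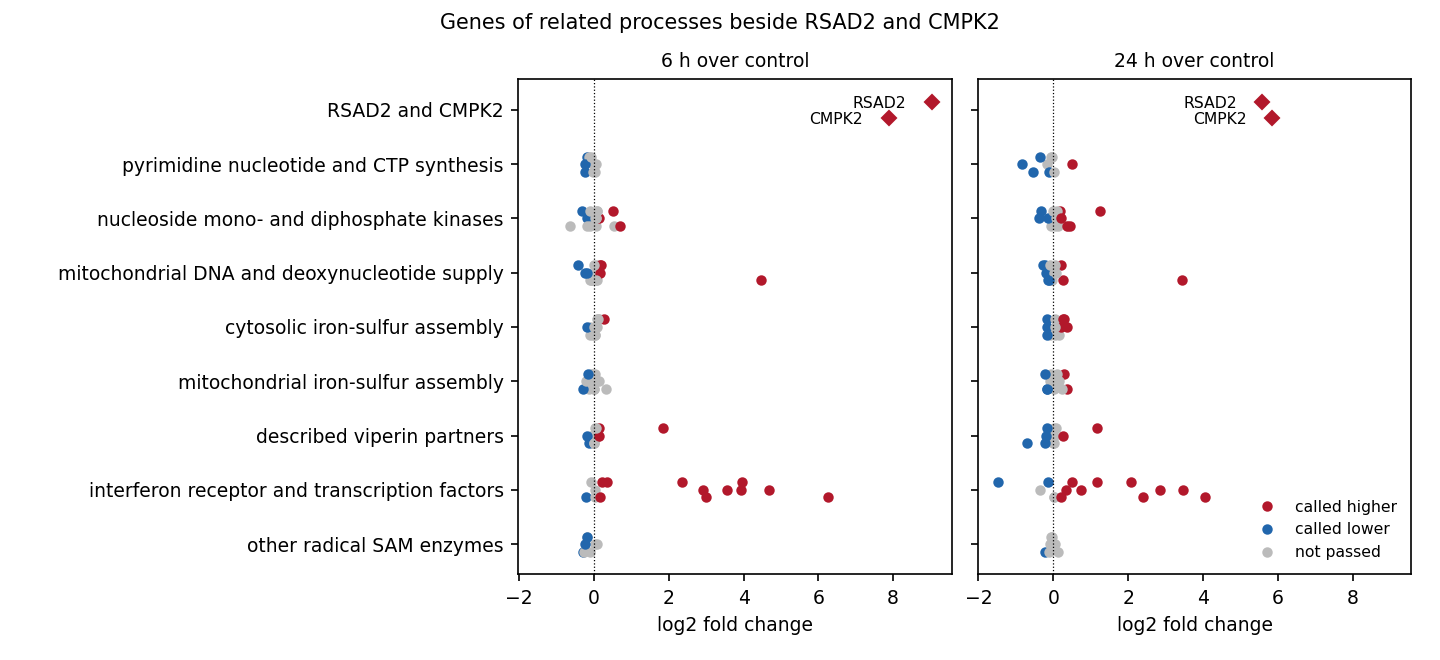
Log2 fold changes of 6 h over control (left) and 24 h over control (right) for RSAD2 and CMPK2 (diamonds) and for the tested genes of 8 lists (circles); red passed as higher, blue as lower, and grey did not pass. The pair lies at 7.88 and 9.04 at 6 h, to the right of every listed gene, the nearest being USP18 at 6.26.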

How the data were processed

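The members and the gene lists were chosen with earlier results of these data known. Reads were aligned with STAR 2.7.8a to hg38 and handled in Partek, per the submitters' processing notes; for counting, strand setting and annotation release the sources used here give nothing. Estimated counts for 59609 genes were deposited by the authors and were rounded to whole numbers here. The authors also deposited a normalized signal table, with 0.0001 added and 1 multiplier per library, which served as an alternative. Library totals ran from 15101734 to 40384407, so a gene with few counts in control has an imprecise fold change.

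Genes were tested with edgeR 4.0.16 (R 4.3.3) with its quasi-likelihood test and TMM factors over all 9 libraries (minimum count 10, minimum total 15; 16964 genes; 6 residual degrees of freedom), at a Benjamini-Hochberg adjusted p of 0.05 over all tested genes. Levels are CPM with TMM factors. Standard errors were taken from the log2 fold change and the F statistic (its size over the root of F). The test was checked on simulated data. The ratio of the pair was tested by exact permutation of the libraries (Python 3.11.15, scipy 1.17.1).

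The text names the pair, its neighbours within 500000 bases with more than 10 counts, the 5 nearest profiles per member, and up to 4 called genes per list and comparison; not all are named. An item that the rule names is not reported here. CMPK1 and CIAO1 were added for their function, and IFNAR1, IFNAR2, JAK1, TYK2, IRF2 and PRDM1 were also named outside that rule. Exons came from GENCODE v29, which shares the start of 81.6% of symbols with the table, and promoters from RefSeq on GRCh38.p14. Alternatives were DESeq2 1.42.0, median-of-ratios scaling, library size only, no low-count filter, 2 groups per fit, thinning to a total of 15101664, a replicate block, each library left out, and limma 3.58.1 on log2 of the deposited normalized signal with pseudocounts of 1 and 0.1. Figures were drawn with matplotlib 3.10.9.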

Additional observations from a re-analysis of the deposited data

How the results depend on the processing

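The 6 fold changes of the pair and the ratio over 3 groups kept their side of the threshold in all 121 of their alternatives. The fold changes also kept their direction. The statistic of the ratio over 3 groups is a sum of squares and has no direction. The 3 pairwise ratios kept their direction in 39 alternatives, but their exact tests could not pass 0.05 in this design. For the ratios part of this agreement was fixed in advance. The deposited table scales both genes of a library alike, so it returns the same ratios. The replicate block changes the test and not the ratios. Leaving out a library of the group not compared leaves a pairwise ratio unchanged. Over the left-out libraries the log2 fold change of RSAD2 ranged from 8.86 to 9.44 at 6 h and from 5.41 to 5.99 at 24 h over control, and from -3.51 to -3.40 between the times. That of CMPK2 ranged from 7.66 to 8.34, from 5.62 to 6.31 and from -2.06 to -2.02. Over the other settings RSAD2 ranged from 8.17 to 9.10, from 5.01 to 5.93 and from -3.45 to -3.16, and CMPK2 from 7.23 to 8.0, from 5.48 to 6.24 and from -2.03 to -1.75. Deviations from the group means correlated at -0.0588 to 0.0214 between same-numbered libraries. Between differently numbered libraries they correlated at -0.0277 to 0.0712. Such weak correlations cannot exclude a shared batch, so whether same-numbered libraries were paired is not known. With a replicate block the log2 fold changes of RSAD2 were 9.03, 5.58 and -3.45 and those of CMPK2 7.88, 5.84 and -2.03. Under the block the ratio test gave an exact permutation p of 0.0278 over 3 groups and 0.25 per pair, the smallest possible.

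Counts over all genes depend on the scaling. With library size only the median of all genes moved to -0.145 at 6 h and 0.198 between the times, and the calls to 1669 higher and 6192 lower at 6 h (21.2% higher, 53.2% with TMM), 5500 and 3078 at 24 h (64.1%, 49.5% with TMM) and 8229 and 2475 between the times (76.9%, 46.6% with TMM), against 2968 and 2608, 4191 and 4284, and 4520 and 5184 with TMM. With the deposited normalized signal (pseudocount 1) the median was 0.134, 0.371 and 0.215, and 88.4%, 96.4% and 83.3% of calls were higher (1615 and 211 genes, 8575 and 321, 4874 and 975); with 0.1 they were 87.4%, 96.3% and 83.3% (1621 and 233, 8398 and 319, 4695 and 941). Of 1080 counts of list members over all alternatives 185 moved by over 1.5 times, 117 of them with library size only or in the deposited table; 55 of the 185 involved 5 or more members. CMPK1 took the opposite sign at 24 h unscaled beyond library size (0.021) and in the deposited table (0.38 with either pseudocount) and at 6 h with library size only (-0.091) and without a 6 h library (-0.0034 without replicate 3, range up to 0.081), and CIAO1 at 6 h in the deposited table (0.14 with either pseudocount). Calls were also gained: CMPK1 passed at 24 h in the deposited table (limma adjusted p = 0.0398 and 0.0423), and CIAO1 passed with library size only at 6 h (-0.17) and 24 h (0.12) and at 24 h in the deposited table (0.48 with either pseudocount). CAD (-0.088), IRAK1 (-0.25) and CDA (-0.38) did not pass at 24 h in that table with a pseudocount of 1. The few counts of the pair in control limit its fold changes over control, and the cause of these shifts was not tested.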

Other observations

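The higher level of the pair in control library 3 was set beside that of the other induced genes. Of 180 genes that rose at least 4-fold at 6 h and averaged 0.5 CPM or more in control, 90 (50%) had their highest control value in library 3, against 34.7% of 15910 genes of that level. The median of the 180 genes in library 3 was 1.04 times the mean of the other control libraries. Of the 180, 3 exceeded 2 times that mean, both members of the pair among them. The pair thus stood above the median of the induced genes in that library, at 2.07 times for RSAD2 and 2.26 times for CMPK2. Of the nearest genes by profile IFIT1 stood highest there too, at 4.92, 6.14 and 10.6 CPM in control libraries 1, 2 and 3. IFIT2, IFIT3, OAS2 and MX1 also had their highest control value in library 3. TRIM22 had its lowest there, but from only 3, 4 and 2 counts in control libraries 1, 2 and 3. This comparison was chosen after the values had been seen.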
